A study of Mus musculus with 16 samples.

Results

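The Ms4a family genes described here are Ms4a7, Ms4a6d, Ms4a6c, Ms4a6b and Ms4a4b. They are 5 of the 19 genes whose symbols begin with Ms4a in a count table of 54532 entries. The 5 were chosen by name, with earlier results of these data known. RNA of brain tissue from female mice of 9 months of age had been sequenced in 16 bulk libraries, in 4 groups of 4. The groups cross the Ch25h genotype (Ch25h+/+ or Ch25h-/-) with the tau status (Tau- or Tau+), where Ch25h encodes cholesterol 25-hydroxylase, -/- marks mice that lack it, and Tau+ is taken to mean a tau transgene. The labels name neither the transgenic line nor its promoter, and they do not say whether the knockout is limited to a cell type. Nothing in them says that the libraries of a group came from separate animals, so the p-values measure the spread between these libraries, which may be in part technical.

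MS4A proteins cross the membrane 4 times and sit beside immune receptors, whose signalling they modulate. The genes lie in a cluster and are divided among blood cell lineages. Ms4a1 encodes CD20 of B cells, and Ms4a2 the beta chain of the IgE receptor of mast cells. Ms4a6c, Ms4a6d and Ms4a7 are expressed mainly by monocytes and macrophages. In mouse brain, Ms4a7 is used as a marker of the macrophages at the brain's borders and of macrophages that entered from blood, and it is low in resting microglia. Ms4a4b is best known from T cells, where its product associates with the costimulatory receptor GITR. The human cluster is known from genetic studies of Alzheimer's disease.

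All 5 genes lie on chromosome 19 of the mouse build GRCm38, between 22.9 and 23.1 Mb from Ch25h itself. In the annotation GENCODE M21, Ms4a7 spans chr19:11321039-11336146 on the minus strand, Ms4a4b chr19:11443553-11467055 on the plus strand and Ms4a6c chr19:11469366-11482192 on the plus strand. Ms4a6b spans chr19:11516512-11531256 on the plus strand, and Ms4a6d spans chr19:11586604-11604849 on the minus strand. RefSeq promoter sequences (build GRCm38.p6) were found for 4 of the 5 genes. The sequences of Ms4a7, which had the largest fold change of the tested members, and of the related genes Ms4a6c and Ms4a6b, which have stretches in common, are printed 5′ to 3′ from 250 bases before the RefSeq start (for Ms4a7, the more upstream of its 2 starts). The window of Ms4a7 is chr19:11336157-11336396 (minus strand), that of Ms4a6c is chr19:11469118-11469357 (plus strand), and that of Ms4a6b is printed over chr19:11518309-11518452 (plus strand), up to where an annotated exon begins, and lies within the GENCODE span of that gene. Capitals mark the runs of 15 or more bases that Ms4a6c and Ms4a6b have in common.
Ms4a7: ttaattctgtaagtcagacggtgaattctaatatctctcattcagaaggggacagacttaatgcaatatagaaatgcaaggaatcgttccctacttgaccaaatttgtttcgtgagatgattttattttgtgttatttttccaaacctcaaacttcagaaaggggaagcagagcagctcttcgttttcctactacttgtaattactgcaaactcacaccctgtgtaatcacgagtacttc
Ms4a6c: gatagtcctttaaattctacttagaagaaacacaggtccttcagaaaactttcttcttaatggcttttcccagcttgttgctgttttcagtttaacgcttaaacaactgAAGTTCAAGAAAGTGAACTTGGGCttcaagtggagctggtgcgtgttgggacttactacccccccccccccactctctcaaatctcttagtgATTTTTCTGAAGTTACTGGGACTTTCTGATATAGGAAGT
Ms4a6b: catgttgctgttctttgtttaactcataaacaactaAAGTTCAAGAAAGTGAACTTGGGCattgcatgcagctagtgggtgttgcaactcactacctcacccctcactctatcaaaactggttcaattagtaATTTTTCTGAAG

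The capitals show that Ms4a6c and Ms4a6b share a run of 24 bases, which starts 141 bases before the start of Ms4a6c and 214 bases before that of Ms4a6b. A second shared run of 39 bases starts 49 and 118 bases before the respective starts, and the part of it that lies in an exon of Ms4a6b is not printed. Neither run was found in any other of the 32851 promoters of the table (0 for both). Motifs of factors active in macrophages were searched on both strands in windows of 240 bases. They were the interferon-stimulated response element (in 2.87% of all promoters) and the STAT element TTCNNNGAA (6.77%). The others were the PU.1 motif GAGGAAGT (2.29%) and its part GAGGAA (22.3%). The only match in the 4 genes was GAGGAA in Ms4a4b, 64 bases before its start. The shorter ETS core GGAA was not searched for, and it occurs in the printed sequences of Ms4a7 and Ms4a6c. These are matches of letters in short windows, and no binding was measured.

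Depth was 15530352 to 25602500 counts per library, and 3 counts in a library equalled 0.117 to 0.195 CPM (counts per 1000000 counts of the scaled library size). Ch25h had 0 counts in all 8 Ch25h-/- libraries and was found in all 8 Ch25h+/+ libraries. Prnp, whose promoter drives several tau transgenes, was at 783 ± 41.7 CPM (SD, n = 4) in Ch25h+/+ and 756 ± 53.8 CPM in Ch25h-/- among Tau- libraries, against 1680 ± 182 and 1620 ± 175 CPM among Tau+ libraries. The labels name the frontal cortex and the text of the series the hippocampus. The 5 cortical markers Cux2, Rorb, Tbr1, Fezf2 and Lamp5 summed to 552 to 751 CPM, and the 5 hippocampal markers C1ql2, Spink8, Fibcd1, Lct and Dsp to 17.4 to 61.6 CPM, with none at 0 in any library. Relative to total counts, the ribosomal RNA transcript CT010467.1 stood at 2290 to 5680 CPM in all but 1 of the 8 Ch25h-/- libraries. It was at 153 CPM in replicate 1 of Ch25h-/- Tau+ and at 111 to 475 CPM in the Ch25h+/+ libraries.

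Ms4a genes were rare transcripts in this tissue. Together the 19 genes had 1199 counts over all 16 libraries, and 994 of these (82.9%) fell on the 5 genes described. Ms4a6b had 343 counts, Ms4a6d 340, Ms4a7 166, Ms4a6c 115 and Ms4a4b 30. Of the 14 other family members, Ms4a5, Ms4a12, Ms4a13 and Ms4a18 had 0 counts in every library, 6 had 1 to 9 counts in all, and 4 had 10 or more. Ms4a1 (CD20) had 9 counts and Ms4a2 (the IgE receptor chain) 4, so the family members of B cells and mast cells were at or near the counting floor. The best detected of the others was Ms4a4a, a macrophage gene whose human product is reported to bind the microglial receptor TREM2. It had 20 counts in Ch25h+/+ Tau-, 43 in Ch25h+/+ Tau+, 14 in Ch25h-/- Tau- and 16 in Ch25h-/- Tau+, summed over 4 libraries each, and 13 of the 20 were in replicate 4 of Ch25h+/+ Tau-. Ms4a4c, another myeloid member, had 1, 19, 4 and 2 counts in the same order.

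**Figure D1:**
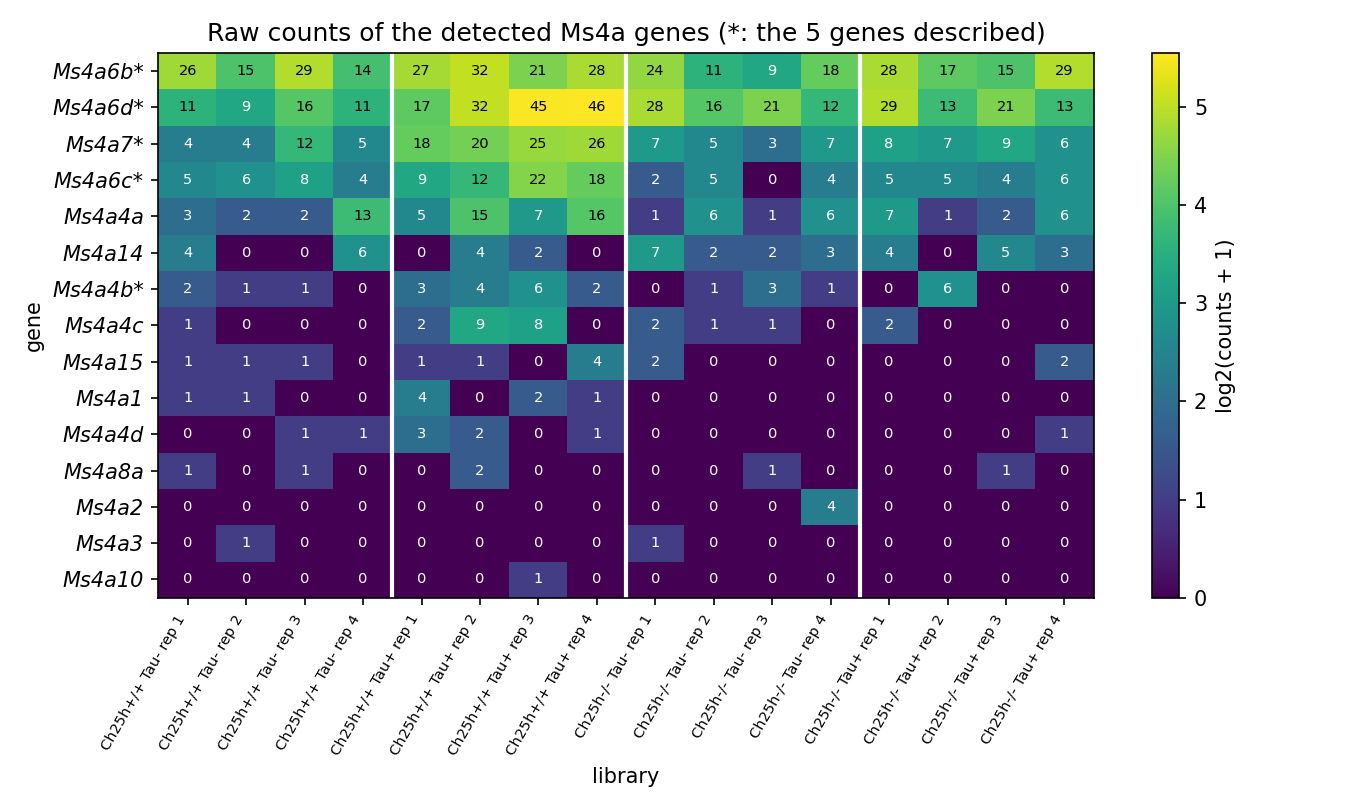
Raw counts of the 15 detected Ms4a genes (vertical axis, the 5 genes described marked with an asterisk) in the 16 libraries (horizontal axis, white lines between the groups). Colour gives log2(counts + 1). The upper rows, among them Ms4a6b and Ms4a6d, carry counts in every library, and Ms4a7 rises from 4 to 12 counts in Ch25h+/+ Tau- to 18 to 26 in Ch25h+/+ Tau+.

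Per kilobase of exon, Ms4a6d was the most abundant of the 5 genes in every group. In Ch25h+/+ Tau- it stood at 0.323 ± 0.0517 CPM per kilobase (SD, n = 4), followed by Ms4a6b at 0.222 ± 0.0607, Ms4a6c at 0.135 ± 0.0346, Ms4a7 at 0.0659 ± 0.0342 and Ms4a4b at 0.00542 ± 0.00433. In Ch25h+/+ Tau+ the order was Ms4a6d at 0.953 ± 0.314, Ms4a6c at 0.356 ± 0.119, Ms4a6b at 0.295 ± 0.0626, Ms4a7 at 0.243 ± 0.0372 and Ms4a4b at 0.0207 ± 0.00868 CPM per kilobase. Ms4a6c, Ms4a6b and Ms4a7 thus lay within about 1 SD of their neighbours in that order. In the Ch25h-/- groups Ms4a6d was at 0.656 ± 0.252 (Tau-) and 0.572 ± 0.112 (Tau+), Ms4a6b at 0.203 ± 0.0909 and 0.271 ± 0.0921, Ms4a6c at 0.0778 ± 0.0624 and 0.137 ± 0.0407, and Ms4a7 at 0.0723 ± 0.0244 and 0.0929 ± 0.0196 CPM per kilobase. Ms4a6b and Ms4a6c share 3.44% and 5.85% of their 50-base transcript windows with other Ms4a genes, most with each other, so reads between this pair are in part uncertain. For Ms4a6d the share was 2.31%, for Ms4a4b 2.24% and for Ms4a7 0. The use of strand in counting is not given in the sources used here, and Ms4a6c overlaps the antisense gene BE692007, which had 38 counts in all.

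Of the 5 genes, Ms4a7, Ms4a6d and Ms4a6b passed the filter on low counts and were tested among 17736 genes with edgeR's quasi-likelihood test, adjusted by the Benjamini-Hochberg method over all of them. Ms4a7 passed that filter only through its 4 Ch25h+/+ Tau+ libraries, since 0 libraries of the other groups reached the filter's level, so its calls in comparisons that use this group were made more likely by the filter. Ms4a6d reached that level in 14 libraries and Ms4a6b in all 16. Ms4a6c and Ms4a4b did not pass and were compared by exact two-sided permutation tests of CPM, 4 libraries against 4, for which 0.0286 is the smallest p possible. A total of 7 such tests were made on the 2 genes.

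With tau in Ch25h+/+ mice, Ms4a7 and Ms4a6d rose, to 3.56-fold and 2.93-fold of their Tau- levels, while Ms4a6b did not pass the test. Of all tested genes, 1.47% were called higher (1.56% in either direction), and since Ms4a7 entered the fit through this Tau+ group, the count of 2 is read only as a description. The CPM of Ms4a7 in replicates 1 to 4 was 0.185, 0.219, 0.518 and 0.252 in Ch25h+/+ Tau- and 1.11, 0.841, 1.16 and 1.21 in Ch25h+/+ Tau+. Every Tau+ library was above the highest Tau- library. The means were 0.293 ± 0.152 and 1.08 ± 0.166 CPM (SD, n = 4), and the log2 fold change was 1.83 (SE 0.35, 95% interval 1.09 to 2.58, adjusted p = 0.00808 by edgeR with Benjamini-Hochberg adjustment). With no filter it was 1.84 (SE 0.44, adjusted p = 0.0159 by edgeR).

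Ms4a6d, a macrophage member of the Ms4a6 subfamily, was at 0.508, 0.492, 0.69 and 0.554 CPM in Ch25h+/+ Tau- and at 1.05, 1.35, 2.09 and 2.15 CPM in Ch25h+/+ Tau+. These libraries did not overlap either, and replicates 3 and 4 of Tau+ were the high ones. The log2 fold change was 1.55 (SE 0.32, 95% interval 0.89 to 2.22, adjusted p = 0.0125 by edgeR with Benjamini-Hochberg adjustment). The call was lost without replicate 1 of Ch25h+/+ Tau- (1.51, adjusted p = 0.054 by edgeR) and without replicate 4 of Ch25h+/+ Tau+ (1.41, adjusted p = 0.0695).

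Ms4a6c, whose promoter shares the capitals above with that of Ms4a6b, was at 0.231, 0.328, 0.345 and 0.202 CPM in Ch25h+/+ Tau- and at 0.554, 0.505, 1.02 and 0.84 CPM in Ch25h+/+ Tau+. Its libraries did not overlap, and the mean was 2.64-fold higher in Tau+ (exact permutation p = 0.0286). When all genes with a count were fitted with edgeR and no filter, its log2 fold change was 1.39 (SE 0.52, adjusted p = 0.385), which is not past the threshold. Ms4a6b was at 1.2, 0.82, 1.25 and 0.705 CPM in Ch25h+/+ Tau- and at 1.66, 1.35, 0.976 and 1.31 CPM in Ch25h+/+ Tau+. The groups overlapped, with 3 of 4 Tau+ libraries above the highest Tau- library, and the log2 fold change was 0.39 (SE 0.32, 95% interval -0.28 to 1.07, adjusted p = 0.847 by edgeR). Its interval does not exclude a rise of the size of 2-fold.

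Ms4a4b, the T cell member, had 2, 1, 1 and 0 counts in the Ch25h+/+ Tau- libraries and 3, 4, 6 and 2 in the Ch25h+/+ Tau+ libraries. In CPM the means were 0.0476 ± 0.038 and 0.181 ± 0.0762 (SD, n = 4), and every Tau+ library was above every Tau- library (exact permutation p = 0.0286). In counts there was a tie: replicate 1 of Tau- and replicate 4 of Tau+ both had 2 counts, at 0.0924 and 0.0934 CPM. The separation thus came only from the scaling for library size. With no filter, edgeR gave an adjusted p of 0.836 for Ms4a4b. No fold change is given, because the Tau- group was below 3 counts in each library. In this comparison 4 of the 5 genes (all but Ms4a6b) had libraries that did not overlap in CPM, and for Ms4a4b they were tied in counts. Of the genes that passed the filter, a set without Ms4a6c and Ms4a4b, 3.89% had non-overlapping libraries with Tau+ higher, and the shares are not compared.

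**Figure D2:**
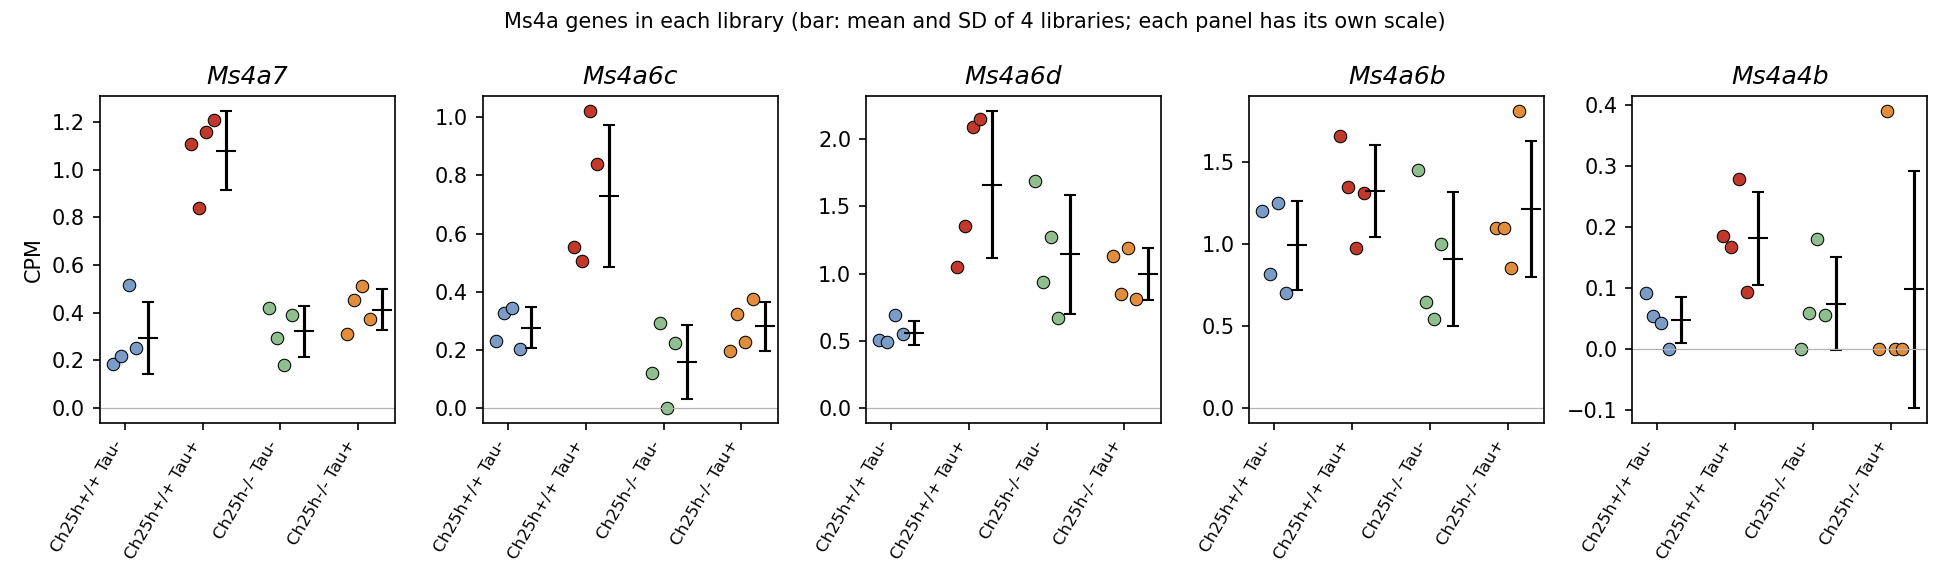
CPM (vertical axis, TMM-scaled, a separate scale in each panel) of the 5 Ms4a genes in the 4 groups (horizontal axis). Points are libraries and bars are the mean and SD of 4 libraries; the bar of Ms4a4b in Ch25h-/- Tau+ reaches below 0 because 3 of its 4 libraries are at 0. The Ch25h+/+ Tau+ libraries of Ms4a7 sit between 0.841 and 1.21, above all 12 others.

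Among Tau+ mice, Ms4a7 was lower without Ch25h, at 0.382 of its level with it, a call that was lost with no filter on low counts, while Ms4a6d and Ms4a6b did not pass. Of all tested genes, 2.4% were called lower and 3.55% in either direction, and here too Ms4a7 was in the fit only through the group where it was high. Ms4a7 was at 0.313, 0.455, 0.511 and 0.375 CPM in Ch25h-/- Tau+, all below the lowest Ch25h+/+ Tau+ library at 0.841. The log2 fold change was -1.39 (SE 0.35, 95% interval -2.12 to -0.66, adjusted p = 0.037 by edgeR with Benjamini-Hochberg adjustment). With no filter it was -1.40 (SE 0.43, adjusted p = 0.0668 by edgeR), not past the threshold. This comparison uses the same Ch25h+/+ Tau+ libraries as the tau effect in Ch25h+/+, so the 2 results are not independent.

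Ms4a6c was also lower in every library. It was at 0.196, 0.325, 0.227 and 0.375 CPM in Ch25h-/- Tau+, with no overlap with the 0.505 to 1.02 CPM of Ch25h+/+ Tau+ (ratio of means 0.384, exact permutation p = 0.0286). With no filter, edgeR gave Ms4a6c a log2 fold change of -1.41 (SE 0.53, adjusted p = 0.16). Libraries of Ms4a7 and Ms4a6c did not overlap. Of the genes that passed the filter, 5.74% had non-overlapping libraries with Ch25h-/- lower, a set that does not hold Ms4a6c, so the shares are not compared. Ms4a6d was at 1.13, 0.845, 1.19 and 0.812 CPM in Ch25h-/- Tau+, where 2 of 4 libraries lay below the lowest Ch25h+/+ library. Its log2 fold change was -0.73 (SE 0.30, 95% interval -1.36 to -0.09, adjusted p = 0.154 by edgeR).

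Ms4a6b did not pass here either. It was at 1.1, 1.1, 0.852 and 1.81 CPM in Ch25h-/- Tau+, with a log2 fold change of -0.12 (SE 0.32, 95% interval -0.79 to 0.55, adjusted p = 0.849 by edgeR). Ms4a4b had 0, 6, 0 and 0 counts in Ch25h-/- Tau+, so that 1 library held all of them (exact permutation p = 0.486 against Ch25h+/+ Tau+).

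The call on Ms4a7 under Ch25h loss was not stable. Besides the fit with no filter, it was lost in a fit of only the libraries compared (-1.39, adjusted p = 0.0743) and when 1 of 6 libraries was left out (adjusted p = 0.0548 to 0.116, all by edgeR). Those were replicates 1, 3 and 4 of Ch25h+/+ Tau+ and replicates 2, 3 and 4 of Ch25h-/- Tau+. Ribosomal RNA was high in 3 of the 4 Ch25h-/- Tau+ libraries, and with that library class as a covariate the log2 fold change was -1.76 (SE 0.58, adjusted p = 0.769 by edgeR). No Ch25h+/+ library was in that class, so with the covariate the Tau+ groups are compared through 1 Ch25h-/- library, replicate 1. A call lost with it, here or below, is therefore not read as the absence of a difference. In the Ch25h-/- Tau+ library with low ribosomal RNA, replicate 1, Ms4a7 was at 0.313 CPM, the lowest of its group, and Ms4a6c at 0.196 CPM, also the lowest, while Ms4a6d was at 1.13 CPM, the second highest, Ms4a6b at 1.1 CPM and Ms4a4b at 0 counts.

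In Ch25h-/- mice, none of the tested genes passed for tau. By edgeR, 0 of the 3 tested genes passed, 0 had an unadjusted p below 0.05, and DESeq2 and limma-voom also called 0. Over all genes 0.0395% were called by edgeR, and 652 of 17736 had an unadjusted p below 0.05. Ms4a7 was at 0.422, 0.294, 0.181 and 0.39 CPM in Ch25h-/- Tau-, overlapping the 0.313 to 0.511 CPM of Ch25h-/- Tau+ (log2 fold change 0.33, SE 0.40, 95% interval -0.52 to 1.18). Ms4a6d had a log2 fold change of -0.18 (SE 0.31, 95% interval -0.84 to 0.48) and Ms4a6b of 0.41 (SE 0.34, 95% interval -0.30 to 1.11). The intervals of Ms4a7 and Ms4a6d end below their estimates in Ch25h+/+ (1.83 and 1.55), which have errors of their own. For Ms4a7 the interval overlaps that in Ch25h+/+ (1.09 to 2.58), and for Ms4a6d (0.89 to 2.22) it does not. This is not a test of the difference between the genotypes. Ms4a6c was at 0.12, 0.294, 0 and 0.223 CPM in Ch25h-/- Tau- and was 1.76-fold higher in the mean in Tau+ (exact permutation p = 0.143).

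The difference between the 2 tau effects was tested by itself as the interaction. By edgeR, 0 of the 3 genes passed after adjustment over all genes, as with DESeq2 and limma-voom, and 0.0338% of all genes were called. Both Ms4a6d and Ms4a7 had an unadjusted p below 0.05 by edgeR, as did 733 of all 17736 tested genes. The interaction log2 fold change of Ms4a6d was -1.73 (SE 0.45, 95% interval -2.67 to -0.79, adjusted p = 0.291 by edgeR) and that of Ms4a7 was -1.5 (SE 0.55, 95% interval -2.65 to -0.35, adjusted p = 0.841). That of Ms4a6b was 0.01 (SE 0.46, 95% interval -0.94 to 0.97). It was therefore not shown, after adjustment, that the tau effect on any of the 3 differed between the genotypes.

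Among Tau- mice, none of the tested genes passed for loss of Ch25h, and Ms4a6d had the largest estimate. By edgeR 0 of the 3 genes passed, against 1.03% of all genes, and limma-voom called 0. DESeq2 gave none of the 3 an adjusted p. Ms4a6d was the 1 gene of the 3 with an unadjusted p below 0.05 by edgeR, as were 3700 of all 17736 tested genes. It was at 1.69, 0.941, 1.27 and 0.669 CPM in Ch25h-/- Tau-, where 3 of 4 libraries were above the highest Ch25h+/+ Tau- library at 0.69 CPM. Its log2 fold change was 1.0 (SE 0.33, 95% interval 0.31 to 1.70, adjusted p = 0.108 by edgeR). All 4 Ch25h-/- Tau- libraries were high in ribosomal RNA and no Ch25h+/+ library was, so the genotype and the library class cannot be told apart within this comparison. Ms4a7 had a log2 fold change of 0.11 (SE 0.41), and Ms4a6b, at 1.45, 0.647, 0.542 and 1.0 CPM in Ch25h-/- Tau-, one of -0.14 (SE 0.34). Ms4a6c was lower in the mean at a ratio of 0.577 (exact permutation p = 0.143).

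**Figure D3:**
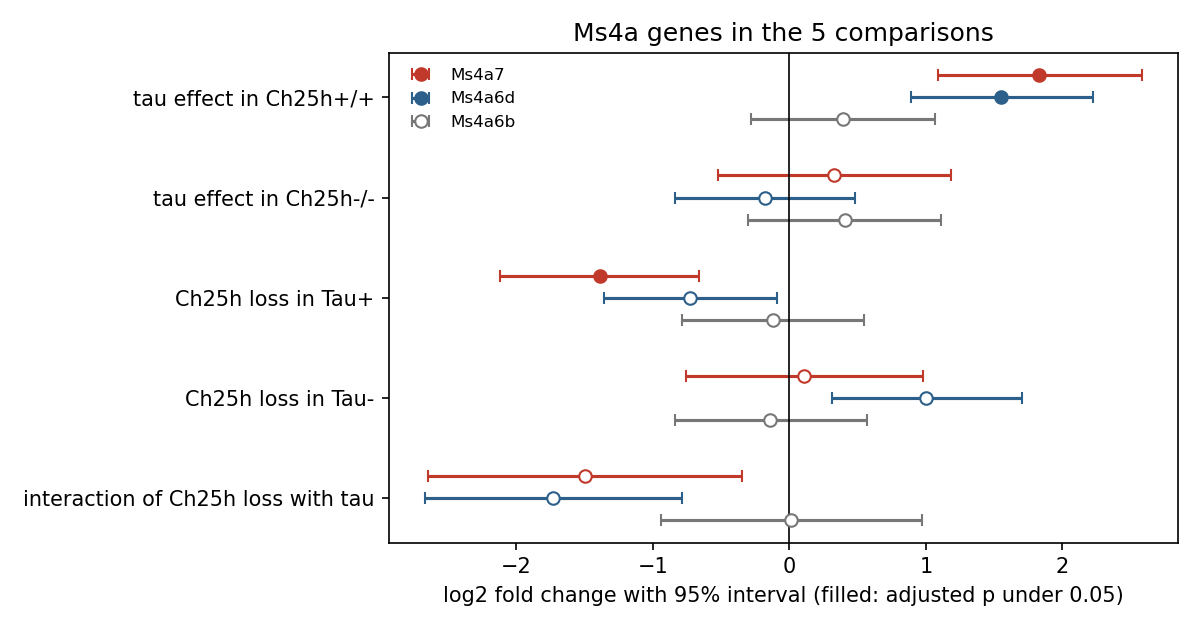
Log2 fold changes (horizontal axis) with 95% intervals of Ms4a7, Ms4a6d and Ms4a6b in the 5 comparisons (vertical axis); filled points passed the adjusted threshold in edgeR. The filled points are Ms4a7 at 1.83 and Ms4a6d at 1.55 for tau in Ch25h+/+, and Ms4a7 at -1.39 for Ch25h loss in Tau+.

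Across groups, the order of the mean levels thus differed between members. For Ms4a7 it was Ch25h+/+ Tau+ (1.08 ± 0.166 CPM), then Ch25h-/- Tau+ (0.413 ± 0.0874), Ch25h-/- Tau- (0.322 ± 0.109) and Ch25h+/+ Tau- (0.293 ± 0.152), and the last 3 overlapped. Ms4a6d ran from Ch25h+/+ Tau+ (1.66 ± 0.547 CPM) through Ch25h-/- Tau- (1.14 ± 0.438) and Ch25h-/- Tau+ (0.996 ± 0.196) to Ch25h+/+ Tau- (0.561 ± 0.09), with overlap between each neighbouring pair but the last. Ms4a6c was at 0.731 ± 0.245 CPM in Ch25h+/+ Tau+, 0.281 ± 0.0834 in Ch25h-/- Tau+, 0.276 ± 0.0709 in Ch25h+/+ Tau- and 0.159 ± 0.128 in Ch25h-/- Tau-. Ms4a6b was at 1.32 ± 0.281, 1.22 ± 0.414, 0.995 ± 0.272 and 0.91 ± 0.408 CPM in the same order, all overlapping (each mean with SD, n = 4).

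Bulk libraries mix cells, so more cells of a type and more RNA per cell cannot be told apart. Marker genes of the cell types that express Ms4a genes are therefore given beside the results. The 11 homeostatic microglia markers summed, in Ch25h+/+, to 293 to 325 CPM (Tau-) and 348 to 421 CPM (Tau+), and in Ch25h-/- to 271 to 319 CPM (Tau-) and 292 to 337 CPM (Tau+). The Ch25h+/+ Tau+ libraries thus stood above all others in this sum, as they did in Ms4a7. With tau in Ch25h+/+, 2 of the 11 rose (Csf1r and Cx3cr1) and 0 fell, with a list median log2 fold change of 0.25 against -0.00804 over all genes. Under Ch25h loss in Tau+, 3 of the 11 fell (Csf1r, Tmem119 and Cx3cr1, log2 fold changes -0.47, -0.39 and -0.43) and 0 rose. With library class as a covariate 0 of these 3 passed (adjusted p = 0.41 to 0.976 by edgeR), at estimates of -0.5, -0.39 and -0.42. Per 1000 counts of these markers, Ms4a7 was at 0.954 ± 0.436 in Ch25h+/+ Tau-, 2.84 ± 0.405 in Ch25h+/+ Tau+, 1.08 ± 0.326 in Ch25h-/- Tau- and 1.33 ± 0.311 in Ch25h-/- Tau+ (SD, n = 4). On this scale the Ch25h+/+ Tau+ libraries of Ms4a7 (2.26 to 3.18) lay above all Ch25h+/+ Tau- libraries (0.622 to 1.59). The scale is a ratio of counts and not a level per cell, and the part of cell numbers was not tested. Ms4a6d was at 1.85 ± 0.206, 4.3 ± 1.17, 3.82 ± 1.3 and 3.22 ± 0.807 in the same group order, and its 2 Ch25h+/+ groups did not overlap either. Ms4a6b stayed between 3.02 ± 1.17 and 3.88 ± 1.26 in the means of the 4 groups, and Ms4a6c was at 0.91 ± 0.209, 1.9 ± 0.574, 0.551 ± 0.468 and 0.892 ± 0.234.

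Border-associated macrophages, the resident cells in which Ms4a7 is best known, were followed by 12 markers, of which 11 were tested. They summed, in Ch25h+/+, to 42.0 to 59.6 CPM (Tau-) and 53.0 to 76.4 CPM (Tau+), and in Ch25h-/- to 37.1 to 64.3 CPM (Tau-) and 50.7 to 62.2 CPM (Tau+), overlapping between groups. By edgeR, 0 of the 11 passed with tau in Ch25h+/+ (1 with the class covariate), though all 11 estimates were positive with a median of 0.64, and 0 passed under Ch25h loss in Tau+ (median -0.35). The smallest p belonged to Siglec1, a sialic acid receptor of macrophages, at 0.402 ± 0.208 CPM in Ch25h+/+ Tau- and 1.37 ± 0.272 CPM in Ch25h+/+ Tau+ (log2 fold change 1.75, SE 0.44, adjusted p = 0.0512 by edgeR). Cd163, a haemoglobin scavenger receptor, was at 1.76 ± 0.55 and 2.83 ± 0.687 CPM (adjusted p = 0.343 by edgeR). Monocyte and neutrophil markers summed, in Ch25h+/+, to 16.1 to 21.0 CPM (Tau-) and 22.1 to 31.4 CPM (Tau+), with no overlap, and in Ch25h-/- to 18.0 to 27.3 CPM (Tau-) and 19.7 to 25.3 CPM (Tau+). Csf3r and Vcan made up most of this sum, at 13.9 and 12.4 of a mean of 27.8 CPM in Ch25h+/+ Tau+. Of the 10, 4 were tested and 1 rose with tau in Ch25h+/+: Csf3r, the G-CSF receptor, from 6.36 ± 0.951 to 13.9 ± 2.54 CPM. Ccr2, the monocyte chemokine receptor, was at 0.249 ± 0.0896 and 0.423 ± 0.0392 CPM (adjusted p = 0.876 by edgeR). Vcan and S100a9 had log2 fold changes of 0.26 and -0.14 and did not pass, and Ly6g was at 0 in all Ch25h+/+ Tau+ libraries. Under Ch25h loss in Tau+, Csf3r fell to 7.39 ± 0.907 CPM (log2 fold change -0.91, adjusted p = 0.0078 by edgeR). With the class covariate its log2 fold change was -0.78 (adjusted p = 0.846 by edgeR). The part of these cells in the Ms4a7 and Ms4a6 results was not tested.

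Disease-associated microglia markers, which mark a state of microglia beside lesions, showed more calls. With tau in Ch25h+/+, 13 of 16 rose and 0 fell (median log2 fold change 1.22), and under Ch25h loss in Tau+ 13 of 16 fell and 0 rose (median -1.09); in Ch25h-/- 0 of 16 passed with tau. With library class as a covariate, the 13 rises with tau in Ch25h+/+ all passed, and 0 of the 13 falls did (adjusted p = 0.0536 to 0.976 by edgeR). All 13 estimates of the falls stayed negative, from -0.35 (Axl) to -4.55 (Itgax), against -0.47 and -3.44 without the covariate. With it the falls rest on 1 Ch25h-/- Tau+ library, while the rises involve no library of that class, so the counts are not compared. They summed, in Ch25h+/+, to 1760 to 2120 CPM (Tau-) and 2670 to 4010 CPM (Tau+), and in Ch25h-/- to 1580 to 1880 CPM (Tau-) and 1660 to 1920 CPM (Tau+), so that Ch25h+/+ Tau+ stood above the other groups, as it did for Ms4a7. Apoe alone made up 76.4% to 79.8% of the sum, and without it the Ch25h+/+ Tau+ libraries were at 615 to 936 CPM against at most 466 CPM elsewhere. This list was assembled with earlier results of these libraries known and is not independent evidence.

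T cell markers bear on Ms4a4b. The 15 markers summed, in Ch25h+/+, to 11.6 to 13.9 CPM (Tau-) and 10.8 to 18.7 CPM (Tau+), and in Ch25h-/- to 8.85 to 11.8 CPM (Tau-) and 8.64 to 14.9 CPM (Tau+). Only 3 were abundant enough to test, and 0 of 3 passed with tau in Ch25h+/+ or under Ch25h loss in Tau+. Cd3d, a chain of the T cell receptor complex, had 0 counts in all Ch25h-/- libraries, and Cd2 and Cd8b1 had 0 counts in Ch25h-/- Tau-. B cell markers summed to 20.2 to 44.1 CPM over all libraries with Blk at 0 throughout. Of the 2 tested 1, the sialic acid receptor Cd22, rose with tau in Ch25h+/+ (0.161 ± 0.133 to 1.79 ± 1.06 CPM). It fell under Ch25h loss in Tau+ (to 0.261 ± 0.0721 CPM, log2 fold change -2.78, adjusted p = 0.0141 by edgeR). With the class covariate its log2 fold change was -2.9 (adjusted p = 0.789 by edgeR). Mast cell markers summed to 52.3 to 69.8 CPM, mostly Kit, which neurons also express. Choroid plexus markers varied from 16 to 2750 CPM within groups and blood markers from 2.32 to 37.7 CPM, and 0 members of either list passed with tau in Ch25h+/+ or under Ch25h loss in Tau+.

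**Figure D4:**
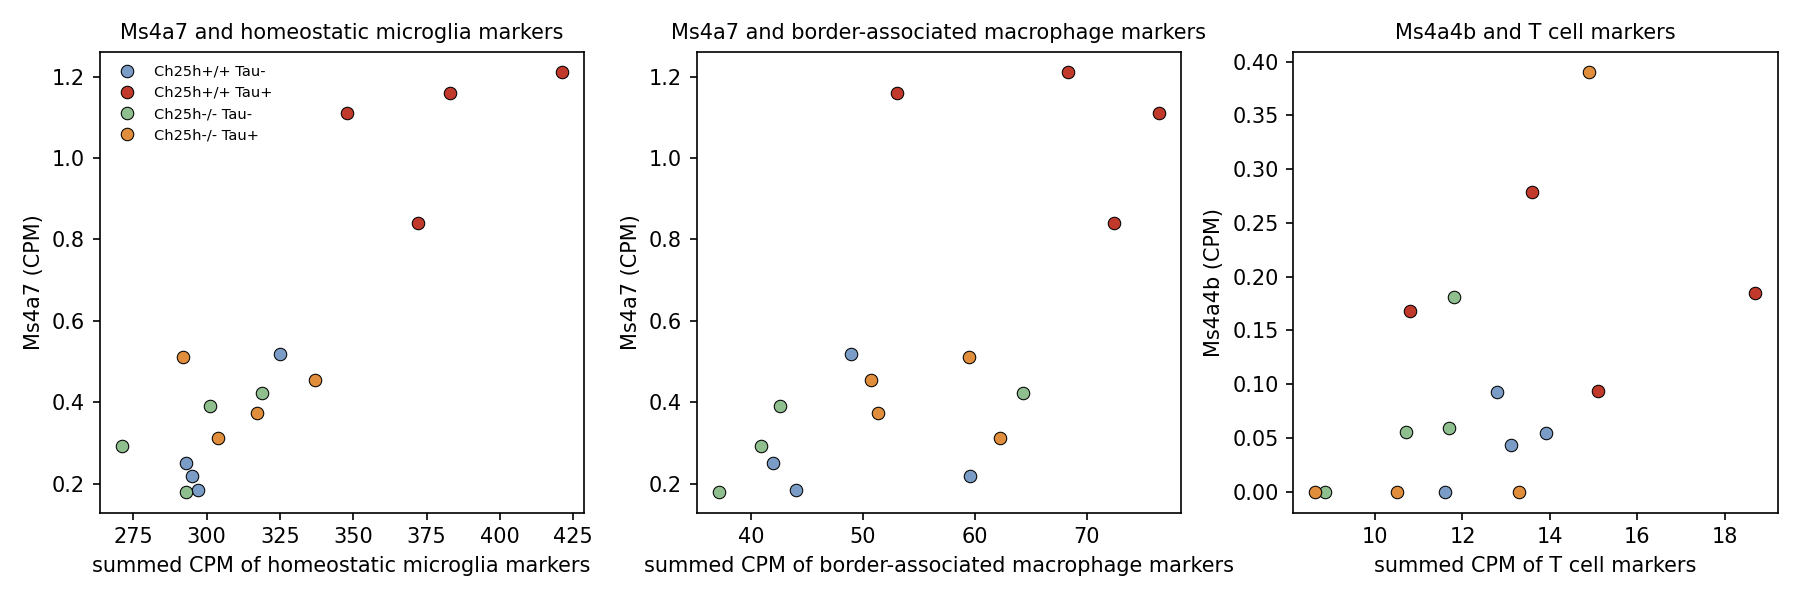
Ms4a7 against summed homeostatic microglia and border-associated macrophage markers, and Ms4a4b against summed T cell markers, in CPM on both axes. Each point is 1 of 16 libraries, coloured by group. The Ch25h+/+ Tau+ libraries stand apart in Ms4a7 (0.841 to 1.21 CPM) and in summed homeostatic microglia markers (348 to 421 CPM, against at most 337 CPM elsewhere), while their border macrophage markers (53.0 to 76.4 CPM) overlap the other groups.

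Several receptors and adaptors are reported to bind or work with MS4A proteins, and 10 of a list of 12 were tested. With tau in Ch25h+/+, 4 of the 10 rose and 0 fell, and 3 of these 4 (Clec7a, Tyrobp and Trem2) are also in the disease-associated list. Clec7a, the beta-glucan receptor Dectin-1, rose from 0.1 ± 0.0809 to 7.06 ± 2.68 CPM (SD, n = 4), and Tyrobp, the signalling adaptor of TREM2, from 7.33 ± 0.436 to 19.1 ± 4.29 CPM. Trem2, the microglial lipid receptor, rose from 13.3 ± 0.955 to 30.9 ± 7.47 CPM (log2 fold change 1.21, SE 0.15, adjusted p = 0.000207 by edgeR), and Grn, which encodes the lysosomal protein progranulin, from 62.5 ± 1.62 to 96.0 ± 11.1 CPM. Under Ch25h loss in Tau+ the same 4 genes fell, with Trem2 at 13.3 ± 3.03 CPM in Ch25h-/- Tau+ (log2 fold change -1.22, SE 0.16, adjusted p = 0.000432; 0.0904 with the class covariate). With that covariate none of the 4 passed (adjusted p = 0.0536 to 0.478 by edgeR). The log2 fold changes of Clec7a, Tyrobp, Trem2 and Grn were then -4.16, -1.5, -1.35 and -0.58, against -3.12, -1.38, -1.22 and -0.62 without it. The gene that rose was Tnfrsf18, which encodes GITR, the partner of the Ms4a4b product, and it is named after its values were seen. It was at 2.43 ± 0.715 CPM in Ch25h+/+ Tau+ and 4.78 ± 0.886 CPM in Ch25h-/- Tau+ (log2 fold change 0.98, SE 0.25, adjusted p = 0.0378 by edgeR). With the class covariate this was 1.25 (SE 0.35, adjusted p = 0.504 by edgeR). In the Tau- groups it was at 3.14 ± 0.678 and 5.57 ± 1.56 CPM (0.82, SE 0.24, adjusted p = 0.0797 by edgeR). In Ch25h-/- mice 0 of the 10 passed with tau, and Fcer1a, the IgE-binding chain that pairs with the Ms4a2 product, was at 0 in all libraries.

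The members followed each other unevenly over the 16 libraries. Pearson's r of log2(CPM + 0.5) was 0.85 between Ms4a6c and Ms4a7, 0.68 between Ms4a6d and Ms4a7, 0.48 between Ms4a6b and Ms4a7, 0.40 between Ms4a6b and Ms4a6c, and 0.16 between Ms4a6b and Ms4a6d, given as a description because the libraries share groups and depth. Among 13960 more abundant genes, those most like the mean of the 3 filtered members were Tifab (r = 0.93), Parp14 (0.91), Ctsh (0.91), Spp1 (0.90) and Hk3 (0.89). Ctsh encodes the lysosomal protease cathepsin H, and its mean was 7.51 CPM in Ch25h+/+ Tau-, 14.6 in Ch25h+/+ Tau+, 7.62 in Ch25h-/- Tau- and 9.94 in Ch25h-/- Tau+. Spp1 encodes the secreted protein osteopontin and was at 7.82, 27.0, 10.4 and 12.3 CPM in the same order. Ms4a7 alone was most like Cmtm6 (0.95), a stabiliser of PD-L1 at the cell surface, and Ifitm3 (0.94), an interferon-induced membrane protein. Ms4a6d was most like Fyb (0.88) and Pik3cg (0.87), an adaptor and a kinase of immune cells. The genes most like Ms4a6b were Wdr6 (0.86) and Tspan6 (0.84), whose levels in the 4 groups ranged only from 138 to 170 and from 8.63 to 10.1 CPM.

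Within 1 Mb of the family's outermost genes, 40 genes of chromosome 19 outside the family were tested. With tau in Ch25h+/+, 2 of them rose, and of all tested genes 1.47% were called higher. Slc15a3, a lysosomal transporter of histidine and peptides, went from 1.85 ± 0.532 to 6.65 ± 1.21 CPM (log2 fold change 1.84, SE 0.27; n = 4), and Mpeg1, which encodes the macrophage pore-forming protein perforin-2, from 23.1 ± 1.81 to 65.8 ± 20.6 CPM (1.51, SE 0.18). Both fell under Ch25h loss in Tau+, to 2.23 ± 0.955 and 29.4 ± 8.06 CPM, where 2.4% of all tested genes were called lower. Their log2 fold changes were -1.57 and -1.17, and -1.3 and -1.28 with the class covariate. With it neither passed (adjusted p = 0.807 and 0.314 by edgeR). In Tau- mice without Ch25h, Tmem258 was lower, at 9.92 ± 0.695 against 13.5 ± 1.6 CPM (adjusted p = 0.05 by edgeR, at the threshold). Its log2 fold change was -0.44, and -0.31 with the class covariate, where it did not pass. Of all tested genes, 1.03% were called in this comparison. No gene of the region passed in the other comparisons, and counts this small are given only as a description.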

How the data were processed

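The deposited table held whole-number read counts per gene and library, with no normalization by the authors. The submitters' processing notes name STAR 2.7 and the builds GRCm38 and mm10. The counting program, its annotation and its use of strand are not given in the sources used here. All 16 libraries had a label for each group, and replicate numbers follow record order. The filter filterByExpr, given the 4 groups, kept 17736 genes that hold at least 99.86% of each library's counts. They were fitted with edgeR 4.0.16 (R 4.3.3, TMM, quasi-likelihood F test, two-sided) in 1 model with a mean per group, with Benjamini-Hochberg adjustment over all genes tested and a threshold of 0.05. SE is the log2 fold change divided by the square root of F. The tests were checked on simulated data. CPM used TMM-scaled library sizes. Exact permutation tests used scipy 1.17.1. The 95% intervals come from the fit and include the spread between libraries, while the floor of 3 counts covers counting error only.

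The alternatives were DESeq2 1.42.0, limma-voom (limma 3.58.1) with quality weights, edgeR with relative log expression factors, with no filter or with a minimum mean of 50 counts, with only the libraries compared, with a covariate for ribosomal RNA-rich libraries (CT010467.1 above 1000 CPM), and without each library in turn. CPM was also computed on total counts. The class covariate was applied to the lists and neighbours after seeing the data. Named genes were all members, Ch25h and Prnp, the other Ms4a genes, the 5 genes most like the members' mean and the 2 most like each filtered member (mean log2 CPM of at least 1), up to 4 genes per list by p, and called neighbours within 1 Mb. The cortical and hippocampal markers were added later, and 1 microglial and 1 cortical marker are not reported here and were left out of their lists. Members and lists were chosen with earlier results of these data known. Transcript windows and positions came from GENCODE M21, and promoters from RefSeq.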

Additional observations from a re-analysis of the deposited data

Results flagged for a closer look

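Among the 20 combinations of an Ms4a gene and a group, 1 had a library far from the others: Ms4a4b in Ch25h-/- Tau+, where replicate 2 was at 0.39 CPM (6 counts) and the other 3 libraries were at 0. The cutoff is meant to flag about 1 in 20 groups of continuous values by chance, and its rate was not measured for counts this low. A group with 3 libraries at 0 and 1 above 0 is always flagged. All that is known of Ms4a4b in this group rests on that library.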

How the results depend on the processing

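Ms4a7 kept its call for tau in Ch25h+/+ under all 22 alternatives that gave it a value (log2 fold change 1.67 to 2.28). The count of members called there was 1 to 2 when 1 library was left out (2 in the full fit). For Ch25h loss in Tau+ the count, 1 in the full fit, was 0 with no filter, 0 with the library class covariate, 0 with only the libraries compared and 2 with limma-voom, which added Ms4a6d (-0.90, adjusted p = 0.0415), and it was 0 to 1 when 1 library was left out. DESeq2 gave Ms4a7 no adjusted p there, and a mean of at least 50 counts left no member. The causes were not tested. Estimates that changed sign were not past the threshold. Ms4a7 under Ch25h loss in Tau- was -0.40 with the library class covariate and -0.06 to 0.55 when 1 library was left out. Over the same left-out libraries, Ms4a6d for tau in Ch25h-/- ran from -0.37 to 0.06, Ms4a6b under Ch25h loss from -0.38 to 0.00 (Tau+) and -0.44 to 0.04 (Tau-), the interaction of Ms4a6b from -0.24 to 0.31, and the CPM difference of Ms4a4b for tau in Ch25h-/- from -0.0738 to 0.0593. Over all genes, the calls ranged from 160 to 498 (277 in the full fit) for tau in Ch25h+/+, 2 to 28 (7) in Ch25h-/-, 10 to 1883 (629) for Ch25h loss in Tau+, 0 to 1388 (182) in Tau- and 0 to 57 (6) for the interaction. No paired analysis was possible because the replicate numbers follow record order and pair no libraries. With 3 to 46 counts per library for Ms4a7 and Ms4a6d, and fewer for Ms4a6c and Ms4a4b, depth limits what can be detected.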
